A study of Rattus norvegicus with 156 samples.

Results

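The mitochondrial respiratory chain genes were taken here as the nuclear-encoded genes of complexes I to V. They were all probe sets annotated to 1 gene whose symbol starts with Nduf, Sdha, Sdhb, Sdhc, Sdhd, Uqcr, Cox4, Cox5, Cox6, Cox7, Cox8 or Atp5. The rule found 167 of 26202 probe sets, 101 on array A, 33 on B and 33 on C, for 85 of 10969 genes. Of the 85 genes, 72 are subunits: 32 of complex I, 4 of complex II, 8 of complex III, 14 of complex IV and 14 of complex V. The other 13 are assembly factors, an inhibitor, paralogs and pseudogene entries with these symbols. Another 8 probe sets that match several genes were left out, so that Cox7a2, Atp5mc1, Atp5mc2, Ndufa10, Ndufb4 and Ndufs5 were not measured as members.

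The respiratory chain lies in the inner mitochondrial membrane. Complexes I and II pass electrons from NADH and succinate to ubiquinone, complex III passes them to cytochrome c, and complex IV (cytochrome c oxidase) passes them to oxygen. Complexes I, III and IV pump protons, and complex V (ATP synthase) uses the proton gradient to make ATP. Sensory neurons and their long axons depend on this supply. Most subunits are encoded in the nucleus and the rest by mitochondrial DNA. A few complex IV subunits exist as tissue isoforms: in rodents Cox6a2 and Cox8b belong to heart and skeletal muscle, and Cox6a1 and Cox8a to most other tissues.

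RNA of 52 rat tissue pools was hybridised to Affymetrix rat U34 arrays A, B and C, 156 arrays in all. In the SNL groups the L5 and L6 spinal nerves of 1 side were tied, a rat model of neuropathic pain. The treatments were SNL, SNL with gabapentin (GPN, a drug used against neuropathic pain), naive, naive with GPN, and sham surgery, which exposed the spinal nerves and left them untied. In naive rats the side is only a name. GPN was given at 100 mg per kg into the abdomen once a day for 7 days, and the other groups received saline vehicle. Tissue was taken 19 to 21 days after surgery from 8 to 12 rats per group. Only SNL rats with a lowered paw withdrawal threshold were used. The sources used here give no strain, sex or age. Each treatment had 1 pool of 4 to 6 rats in each of up to 11 compartments: mid-thigh sciatic nerve, spinal cord and the dorsal root ganglia (DRG) of L4, L5 and L6, each of both sides, and whole brain. Sensory neurons have their cell bodies in the DRG, and axons of the L5 and L6 DRG run through the tied nerves.

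The 2 ligated pools of a compartment (SNL and SNL with GPN) were set against its 3 unligated pools (naive, naive with GPN and sham). Where a gene had several probe sets, the one brightest on average over the 52 pools stands for it, in normalized signal units that cannot be compared between genes. Log2 changes are limma estimates with the standard error (SE), and adjusted p values are Benjamini-Hochberg values over all probe sets tested, with a threshold of 0.05. These p values measure only the spread between pools. In pools of whole tissue, fewer cells of a type and less RNA per cell cannot be told apart. The array medians ranged from 8.1 to 62.4 before normalization. Tissue markers matched the labels in unligated pools: the nociceptor gene Scn10a was highest in DRG, Mog in cord and Snap25 in brain. Pmp22, a peripheral myelin gene, averaged 6994 in nerve and 5391 ± 458 in DRG, but also 4196 ± 307 in cord, against 181 ± 30.6 in brain, so it did not set DRG apart from cord. Nefl, a neurofilament gene, averaged 69.5 ± 21.7 in nerve and 4821 ± 191 in DRG (SD, n = 3 each), and Adipoq, a fat cell gene, averaged 458 ± 143 in nerve.

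Muscle content was checked first, because skeletal muscle is rich in mitochondria. The mean log2 signal of 35 skeletal muscle markers, none of them a member, ran from 5.14 to 8.9 over 9 nerve pools and from 4.33 to 6.93 over 28 DRG pools. It stayed between 4.43 and 4.55 in 5 brain pools and between 4.41 and 4.78 in 10 spinal cord pools. Both naive nerves stood highest, at 8.16 on the ipsilateral side and 8.9 on the contralateral side. The SNL nerve stood lowest of the nerves, at 5.14. Muscle markers were thus high in nerve and in some DRG pools, and results from the ipsilateral DRG and nerve are given with the muscle markers beside them.

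In nerve and DRG the muscle isoforms followed those markers. Cox6a2 ranged from 69.5 to 1265 over the 9 nerves, with a median of 278.3, and from 42.4 to 246.8 over the 28 DRG pools, with a median of 64.6. Cox8b ranged from 33.6 to 656.8 in nerve and from 5 to 79.7 in DRG. Of the 3 nerves highest in muscle markers, 3 were the highest in Cox6a2 and 2 of the highest 3 in Cox8b, and the 5 DRG pools highest in the markers were the 5 highest in both. The ubiquitous partner Cox6a1 lay between 948.8 and 1312 in nerve, and the naive contralateral nerve, highest in muscle, had 987.5. In spinal cord and brain, where muscle markers were near their lowest, Cox6a2 had medians of 103.4 and 110. In unligated rats its DRG level did not differ from the cord level beyond the spread (log2 -0.49 ± 0.40, adjusted p = 0.434).

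**Figure D1:**
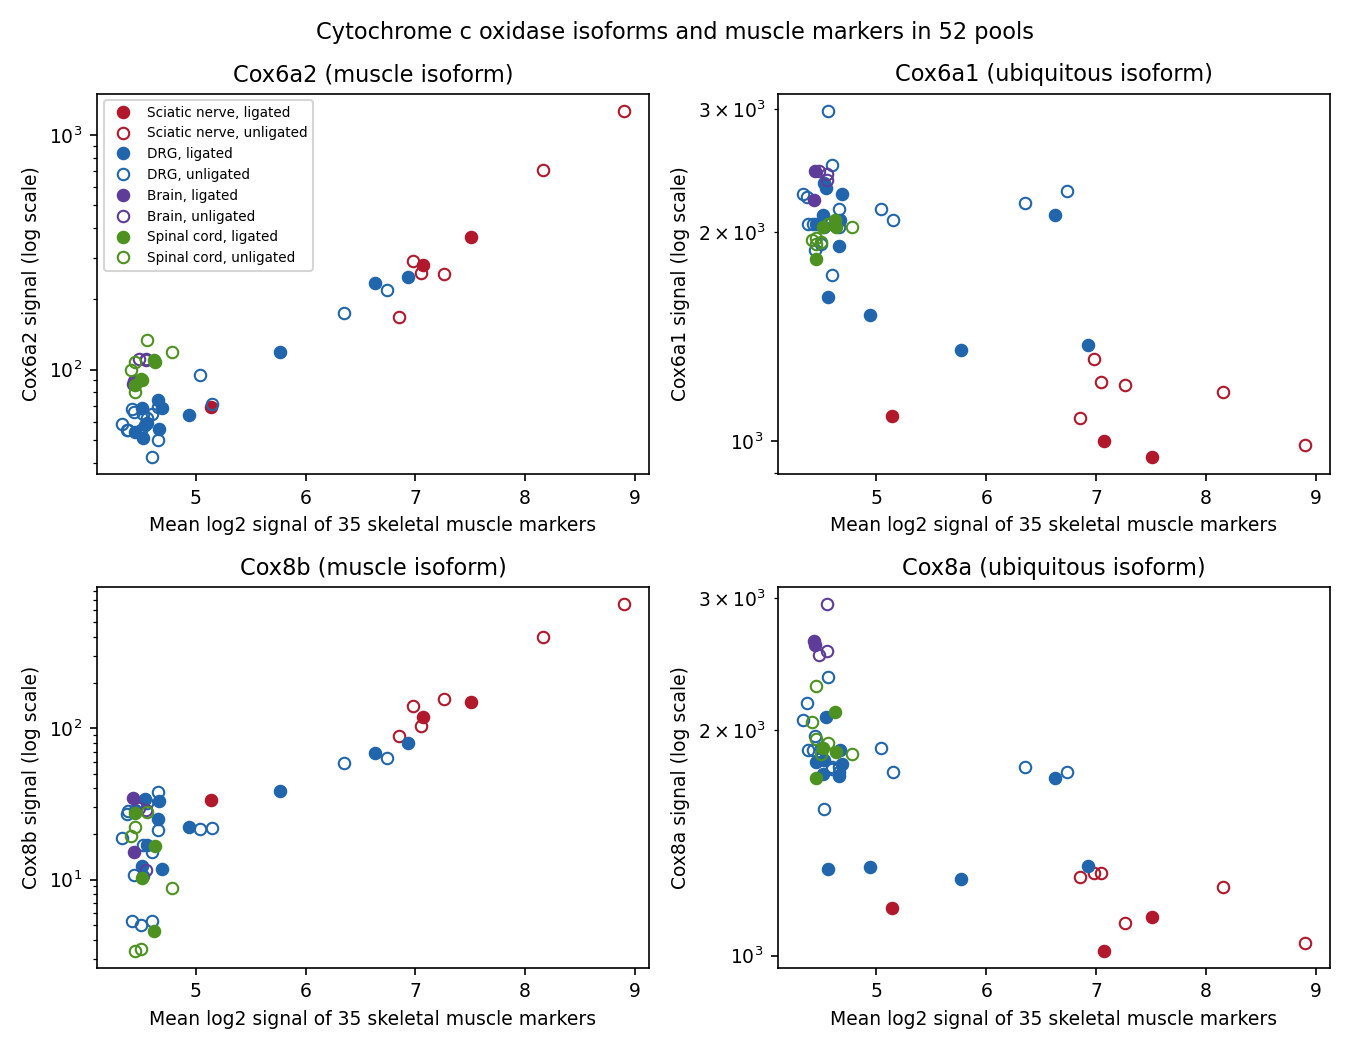
Signal (log scale, normalized over all 52 pools) of the muscle isoforms Cox6a2 and Cox8b and of their ubiquitous partners Cox6a1 and Cox8a, against the mean log2 signal of 35 skeletal muscle markers; each point is 1 pool, filled where ligated and open where not. Cox6a2 reached 1265 and Cox8b 656.8 in the nerve with the highest muscle markers, while Cox6a1 stayed between 948.8 and 1312 in all 9 nerves.

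Promoters are shown for 3 members that fell in the L5 DRG (Sdha, Cox8a and Cox5b) and for both muscle isoforms, so that letters held by ubiquitous and by muscle genes can be compared. RefSeq promoters of build GRCr8 were matched for 74 of the 85 members by symbol, and the 250 bases before the start of each gene are used. Both strands were searched for GCGCA and GCGC with any 1 base between them (letters bound by NRF1, a regulator of respiratory genes). They were also searched for CCGGAAG (ETS factors such as GABP) and CAGCTG (an E-box read by muscle bHLH factors). The last motif was CTA and TAG with any 4 bases between them, a loose pattern for MEF2, a muscle regulator. These 4 motifs do not overlap in the sequences shown. Capitals mark the matches.
Sdha (chr1:30764303-30764552, + strand): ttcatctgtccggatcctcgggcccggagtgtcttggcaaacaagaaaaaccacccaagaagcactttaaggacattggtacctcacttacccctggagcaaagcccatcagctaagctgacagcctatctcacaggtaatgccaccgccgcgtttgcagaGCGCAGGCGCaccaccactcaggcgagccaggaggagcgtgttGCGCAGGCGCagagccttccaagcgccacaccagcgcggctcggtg
Cox8a (chr1:213833624-213833873, - strand): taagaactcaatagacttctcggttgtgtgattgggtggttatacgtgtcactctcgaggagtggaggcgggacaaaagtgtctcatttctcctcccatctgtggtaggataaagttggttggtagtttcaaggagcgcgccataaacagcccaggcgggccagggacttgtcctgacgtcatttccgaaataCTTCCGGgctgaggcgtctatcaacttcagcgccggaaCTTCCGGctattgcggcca
Cox5b (chr9:46417587-46417836, + strand): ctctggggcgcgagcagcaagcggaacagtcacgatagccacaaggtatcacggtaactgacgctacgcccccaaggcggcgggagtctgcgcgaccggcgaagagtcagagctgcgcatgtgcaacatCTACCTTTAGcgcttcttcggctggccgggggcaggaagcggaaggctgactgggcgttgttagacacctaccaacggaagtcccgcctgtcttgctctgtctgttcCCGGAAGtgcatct
Cox6a2 (chr1:192219717-192219966, - strand): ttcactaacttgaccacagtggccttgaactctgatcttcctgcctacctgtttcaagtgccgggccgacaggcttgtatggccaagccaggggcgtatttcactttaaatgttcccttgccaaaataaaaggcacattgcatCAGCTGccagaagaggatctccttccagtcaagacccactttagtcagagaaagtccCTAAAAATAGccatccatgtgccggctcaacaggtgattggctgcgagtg
Cox8b (chr1:205408274-205408523, - strand): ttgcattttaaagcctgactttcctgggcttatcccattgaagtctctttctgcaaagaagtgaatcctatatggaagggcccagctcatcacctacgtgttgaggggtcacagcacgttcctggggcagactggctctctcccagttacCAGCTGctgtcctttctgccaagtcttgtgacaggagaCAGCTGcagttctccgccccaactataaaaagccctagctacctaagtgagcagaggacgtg

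The Sdha promoter held the NRF1 letters at 89 and 46 bases before the start, and the Cox8a promoter held the ETS letters at 57 and 19 bases. Cox5b held the ETS letters at 14 bases and the loose MEF2 pattern at 121 bases, with CCTT between CTA and TAG. Cox6a2 held the loose MEF2 pattern at 50 bases, with AAAA between CTA and TAG, and the E-box at 107. Cox8b held the E-box at 100 and 62 bases. The NRF1 letters were found in 14.9% of the matched members and 4.3% of all 27457 genes with a promoter, and the ETS letters in 28.4% and 8.11%. The loose MEF2 pattern was found in 2.7% of members and 3.7% of all genes, and the E-box in 10.8% and 12.9%. Among 17 matched members that fell in the L5 DRG, 2 held the NRF1 letters and 3 the ETS letters, against 8 and 18 of 56 other tested members. Sdha, Cox8a and Cox5b, the 3 shown, were among these holders, and most of the 17 held neither. These matches describe the sequence and are not binding sites measured here.

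In the ipsilateral L5 DRG, whose nerve was tied, members of complexes I, II, IV and V fell. Of 82 member genes that passed the low-signal filter, 20 were lower in ligated pools (24.4%) and 1 was higher (1.22%). Among all 8589 genes tested there, 9.41% were lower and 6.79% were higher. The median change of the tested members was -0.28, and that of all genes was -0.01. In 47 of 82 members (57.3%) both ligated pools lay below all 3 unligated ones, as did 27.3% of all genes, and in 3 (3.66%) both lay above, against 23.3% of all genes.

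The larger share of calls among members rested on single pools. In either direction, 25.6% of members and 16.2% of all genes were called with all 5 pools. Without SNL the count of 21 was 2, 2.47% of members against 5.19% of all genes, without SNL GPN it was 5 (6.17% against 9.81%), and without naive GPN it was 5 (6.1% against 8.64%). In these 3 fits the members' share was below that of all genes. Without naive it was 14 (17.1% against 12%), and without sham 17 (20.7% against 9.91%). The median over members lay between -0.34 and -0.22 in the 5 fits, and that over all genes between -0.022 and -0.005.

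By complex, 9 of 32 members of complex I fell in the L5 DRG, 1 of 4 of complex II, 0 of 7 of complex III, 6 of 14 of complex IV and 4 of 14 of complex V. None of the 11 tested assembly factors and other members passed (limma), with 0 higher and 2 lower at an unadjusted p under 0.05. For complex III these counts were 0 and 1. The medians by complex were -0.42 for I, -0.17 for II, -0.26 for III, -0.32 for IV and -0.22 for V. Differences between complexes were not tested.

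**Figure D2:**
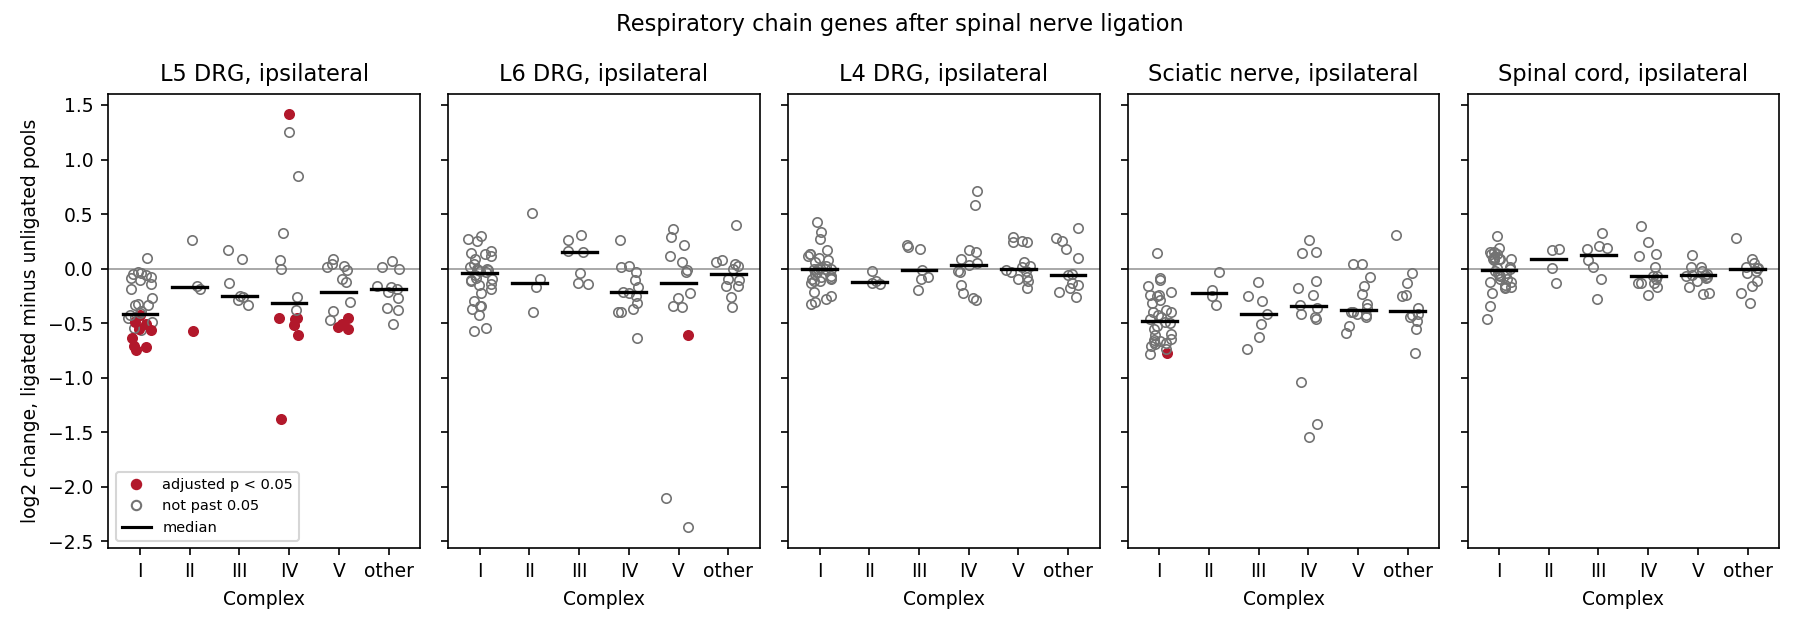
Log2 change of each tested member, ligated minus unligated pools, in the 5 ipsilateral compartments, by complex; filled points are past an adjusted p of 0.05, open points are not, and bars are medians. The L5 DRG had 21 filled points, of which 20 lay below 0, L6 DRG and sciatic nerve had 1 each, and L4 DRG and spinal cord had 0.

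Among the core subunits of complex I, which carry its redox chemistry, Ndufs3 had 129.2 and 175.5 in the SNL and SNL GPN pools, against 264.7, 251.8 and 236 in the naive, naive GPN and sham pools. The groups did not overlap, and the log2 change was -0.71 ± 0.15 (SE, adjusted p = 0.0224). Ndufs7, which holds an iron-sulfur cluster next to the ubiquinone site, had 301.7 and 303.7 in ligated pools, against 560.3, 487.9 and 387.2 in the same unligated pools (-0.64 ± 0.16, adjusted p = 0.0387). Both ligated values were lower than every other, and the sham pool lay nearest to them.

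Among the accessory subunits, Ndufab1, which is also the acyl carrier protein of mitochondria, had 442.7 and 467.9 in SNL and SNL GPN pools, against 764.1, 767.4 and 726.1 in naive, naive GPN and sham pools. The pools of each group lay close together, and the change of -0.72 ± 0.10 had the lowest adjusted p among members, 0.00536. Ndufb10, of the membrane arm, had 233.8 and 263.3 in ligated pools, against 501, 398.9 and 373.5 in unligated pools (-0.75 ± 0.15, adjusted p = 0.0183). The naive pool was the highest. Ndufs6 had 468.4 and 461.2 in ligated pools, against 708.1, 654.4 and 703.8 in unligated pools (-0.56 ± 0.10, adjusted p = 0.0124), with no overlap. Ndufb3, Ndufb9, Ndufc1 and Ndufc2, also accessory subunits, fell by between 0.42 and 0.55. Ndufb8 and Ndufa1, accessory subunits too, did not pass. Ndufb8 had a log2 change of -0.54 ± 0.15 with a rounded adjusted p of 0.05, just above the threshold, and Ndufa1 had -0.11 ± 0.10 (adjusted p = 0.505).

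Complex II oxidises succinate and is shared with the tricarboxylic acid cycle. Sdha, its catalytic flavoprotein, had 269 and 281.7 in SNL and SNL GPN pools, against 437.5, 394.3 and 405.4 in naive, naive GPN and sham pools. The groups were apart, and the change was -0.57 ± 0.11 (adjusted p = 0.0152). Sdhc, which anchors the complex in the membrane, did not pass and lay the other way, with 287.2 and 304.9 in ligated pools, against 246.8, 241.3 and 249.5 in unligated pools (0.26 ± 0.11, adjusted p = 0.144). Sdhb, the iron-sulfur subunit, changed by -0.16 ± 0.12 (adjusted p = 0.422), and Sdhd by -0.18 ± 0.12 (adjusted p = 0.332). In complex III, Uqcrh, the hinge protein that helps bind cytochrome c1, missed the threshold at -0.34 ± 0.10 (adjusted p = 0.0539), and Uqcr11 had -0.26 ± 0.12 (adjusted p = 0.177).

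In complex IV, Cox4i1, the ubiquitous form of subunit 4, had 2397 and 2291 in SNL and SNL GPN pools, against 3579, 3098 and 3057 in naive, naive GPN and sham pools (-0.47 ± 0.10, adjusted p = 0.0243). Cox6a1 had 1607 and 1629 in ligated pools, against 2514.5, 2397 and 2054 in unligated pools (-0.51 ± 0.11, adjusted p = 0.0227). Cox8a had 1508 and 1565 in ligated pools, against 2118, 2074 and 2118 in unligated pools (-0.45 ± 0.09, adjusted p = 0.0153). None of these 3 ubiquitous isoforms overlapped between groups.

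Ndufa4, once counted with complex I and now known as a complex IV subunit, fell by 0.61 ± 0.12 on the log2 scale (adjusted p = 0.0183), and Cox5b by 0.45 ± 0.12 (adjusted p = 0.0395). Cox6b1 missed the threshold at -0.38 ± 0.11 (adjusted p = 0.0508). Cox6c had 53.2 and 19.5 in SNL and SNL GPN pools, against 106.5, 91.4 and 86.8 in naive, naive GPN and sham pools. Its change of -1.38 ± 0.33 (adjusted p = 0.0309) is uncertain, since its other probe set changed by 0.04. Ndufc2 likewise had a probe set at 0.23.

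Of the complex IV isoforms, Cox6b2, which is known as the testis form of subunit 6b, was the only member gene called higher. It had 25.5 and 28.7 in SNL and SNL GPN pools, against 5, 9.2 and 8.2 in naive, naive GPN and sham pools (1.42 ± 0.31, adjusted p = 0.0236). All 5 values were low on the scale of array B, whose pseudocount was 4.5, and its adjusted p ranged from 0.0183 to 0.0632 over 10 alternatives. In the L6 DRG Cox6b2 had 14.9 and 20.2 in ligated pools, against 11.7, 19.4 and 21.6 in unligated pools, and the groups overlapped. Cox4i2, the lung form, overlapped between groups (0.33 ± 0.21, adjusted p = 0.327). The muscle isoforms overlapped too: Cox6a2 had 141.7 and 296 in ligated pools, against 208.3, 84.7 and 76.4 in unligated pools, and Cox8b had 45.3 and 94.6, against 68.7, 25 and 6. Neither passed (adjusted p = 0.241 and 0.257).

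In complex V, Atp5f1b, the catalytic beta subunit, had 1263 and 1406 in SNL and SNL GPN pools, against 2123, 1984 and 1788 in naive, naive GPN and sham pools (-0.56 ± 0.11, adjusted p = 0.0176). Atp5f1c, the gamma subunit of the rotating stalk, had 394.1 and 407.8 in ligated pools, against 570.3, 602.4 and 574.1 in unligated pools (-0.53 ± 0.10, adjusted p = 0.0147). Both genes were lower in each ligated pool than in every unligated one. The alpha subunit gene Atp5f1a fell by 0.46 ± 0.11 (adjusted p = 0.0365), and Atp5mc3, a gene of the proton-carrying c ring, by 0.51 ± 0.11 (adjusted p = 0.0232).

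**Figure D3:**
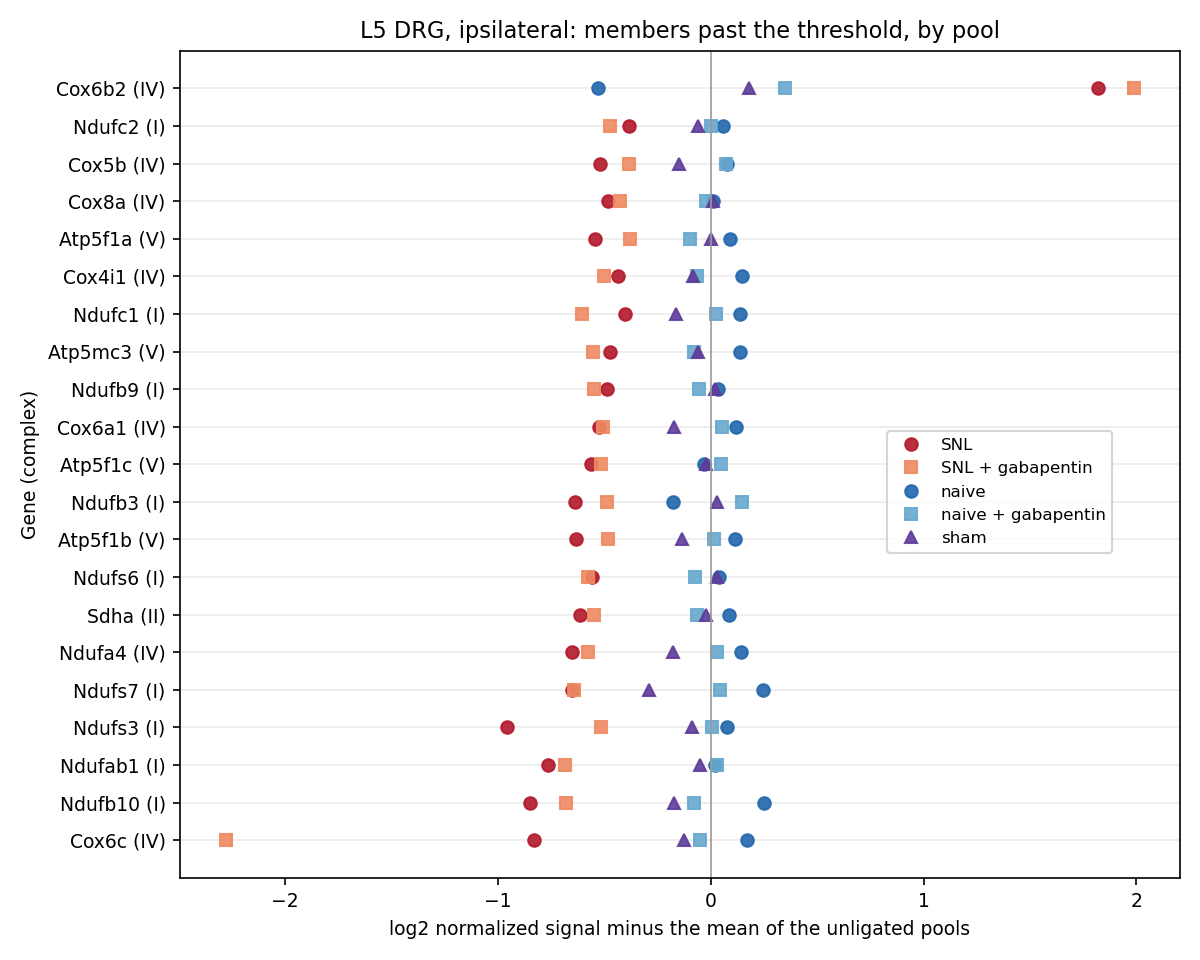
Log2 normalized signal of the 21 members past the threshold in the ipsilateral L5 DRG, by pool, minus the mean of the 3 unligated pools; complexes are in brackets. Both ligated pools (SNL and SNL with gabapentin) lay left of all 3 unligated pools for 20 genes and right of them for Cox6b2, which had 25.5 and 28.7 in ligated pools, against 5, 9.2 and 8.2.

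Markers of cell types moved in the same pools. The summed signal of 34 tested muscle markers of 37 on the arrays ran from 4240 to 12350 in ligated L5 pools and from 1188 to 6110 in unligated ones, and no marker was at 0. With the muscle markers as a covariate, 24 members passed, 23 of them lower, and 17 were shared with the 21 above. These were 29.3% of members, against 13.3% of all genes in that fit. The summed signal of 13 neuronal markers ran from 19560 to 21770 in ligated pools, against 28390 to 29920 in unligated pools, and that of 7 nociceptor markers from 1979 to 2081, against 4228 to 4409. That of 9 macrophage markers ran from 4544 to 4875, against 894.4 to 1469. The part of these cell types in the members' falls was not tested.

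Other energy genes of the L5 DRG were read from lists used in all comparisons and written with earlier results of these data known. Of 19 tested genes of the tricarboxylic acid cycle and pyruvate dehydrogenase, 7 fell and 0 rose, among them Mdh1 (malate dehydrogenase, -1.003, adjusted p = 0.0039) and Pdhb (-0.97, adjusted p = 0.00918). Of 16 other electron carriers and exchangers, of which Atp5if1 is also a member, 5 fell, led by the mitochondrial creatine kinase gene Ckmt1 (-1.81, adjusted p = 0.00312), with Cyc1, the cytochrome c1 gene of complex III (-0.78, adjusted p = 0.0237). Of 24 assembly and biogenesis genes, of which Sdhaf1 and Sdhaf2 are also members, 4 fell. Of 20 genes of glycolysis and lactate 6 fell, led by Ldhb (-1.08, adjusted p = 0.00557). None of the 4 lists had a gene called higher. Among all 8589 genes tested in the L5 DRG, 9.41% were lower and 6.79% higher. The 3 mitochondrially encoded subunits measured, COX1, COX2 and COX3, did not pass, with changes of 0.41, 0.16 and 0.03 (adjusted p = 0.309, 0.285 and 0.858).

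Most calls were on array A, which held most members, and there 18 of 52 tested members were lower (34.6%), as were 12.1% of all genes on that array. On array B the count was 0 of 13, where 8.09% of all genes were lower, and on array C it was 2 of 17 (11.8%), where 7.86% were. With so few members on B and C, no difference between arrays was read from these counts. Of the 21 called genes, 10 had several tested probe sets, in 8 of these all probe sets had the same sign, and 0 had an opposite call.

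In the ipsilateral L6 DRG, also behind a tied nerve, 1 of 83 tested members fell (1.2%) and 0 rose, shares below those of all genes there, of which 4.57% were lower and 4.75% higher. Atp5f1a had 307.3 and 300.4 in SNL and SNL GPN pools, against 454.6, 480.5 and 465.8 in naive, naive GPN and sham pools (-0.61 ± 0.14, adjusted p = 0.039). It passed in 4 of 11 alternatives. At an unadjusted p under 0.05, 7 members were lower and 1 was higher (limma), and the median over members was -0.09. The count was 0 without SNL GPN, without naive or without naive GPN, and 2 without SNL. Ndufab1 (-0.54, adjusted p = 0.0635) and Ndufs3 (-0.58, adjusted p = 0.0596) were apart between groups and did not pass. Atp5f1b had 1002 and 82.8 in the SNL and SNL GPN pools, against 1568, 1475 and 1582 in the unligated pools, and Atp5f1e, the epsilon subunit, had 1172 and 31.5, against 1038, 864.9 and 793.8. The SNL GPN pool thus stood far below the SNL pool for these 2 genes of the same F1 head, whose changes did not pass (adjusted p = 0.128 and 0.325). Both low values come from this 1 pool and from 1 probe set per gene, though Atp5f1e has 3. Their cause was not tested.

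Cell type markers moved in L6 as well. The summed signal of 14 neuronal markers ran from 14040 to 16600 in ligated L6 pools, against 23560 to 26080 in unligated pools, and that of 7 nociceptor markers from 727.4 to 1014, against 4255 to 4402. That of 9 macrophage markers ran from 3885 to 5155, against 701.4 to 1083. The sum of 25 tested muscle markers was 1255 in SNL and 970 in SNL GPN, against 7082 in naive, 916 in naive GPN and 826 in sham, and 0 of the 25 passed. No marker was at 0, and the part of these cell types in the members' values was not tested.

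In the ipsilateral L4 DRG, whose spinal nerve was left intact, 0 of 82 members passed (limma), with 2 higher and 0 lower at an unadjusted p under 0.05. Of all genes there, 0.0117% were higher and 0.0469% lower. The median over members was -0.02. The summed signal of 24 tested muscle markers was 5771 in the SNL pool and 970 in the SNL GPN pool, against 1503 in naive, 924 in naive GPN and 787 in sham. All 24 had a positive change, with a median of 1.04, and 0 passed. Their part in the L4 values was not tested. The difference between the ligation effects in the L5 and L4 DRG was tested on its own: 0 of 83 members passed, as did 0% of all 8882 genes, with 1 higher and 19 lower members at an unadjusted p under 0.05 (limma). Its median over members was -0.29. Ndufb6, an accessory subunit of complex I named after its values were seen, had the lowest unadjusted p. Its L5 minus L4 log2 values were -0.59 and -0.53 in SNL and SNL GPN rats, against 0.17, 0.23 and 0.2 in naive, naive GPN and sham rats (adjusted p = 0.117). The changes in L5 were therefore not shown to differ from those in L4.

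**Figure D4:**
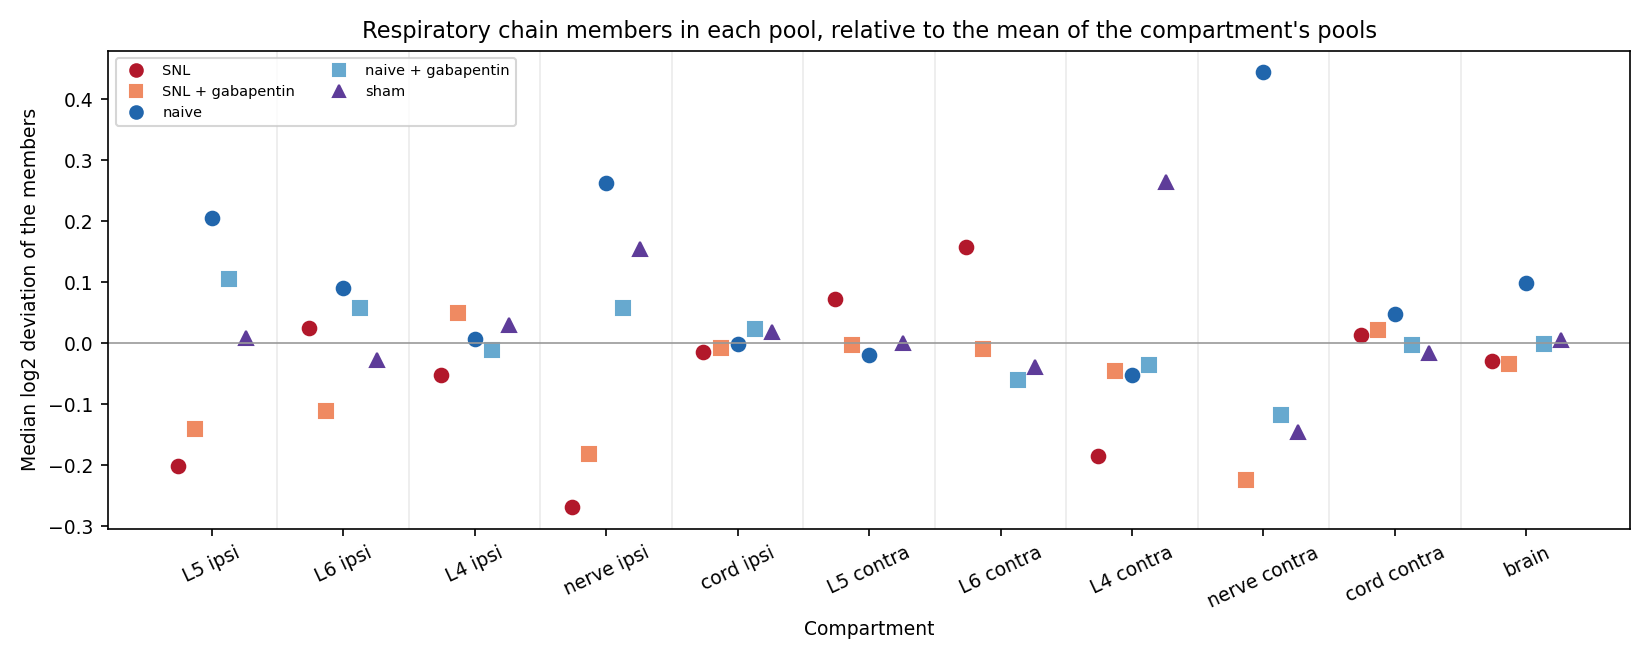
Median over the tested members of each pool's log2 deviation from the mean of its compartment's pools, in 11 compartments; each point is 1 pool. In the ipsilateral L5 DRG the ligated pools lay at -0.20 and -0.14 and the unligated ones between 0.01 and 0.21, and in the ipsilateral nerve at -0.27 and -0.18, against 0.06 to 0.26.

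In the ipsilateral sciatic nerve, taken beyond the ligation, most members had lower values in ligated pools and 1 gene passed the threshold. Of 83 tested members, 1 fell (1.2%) and 0 rose, shares below those of all genes there, of which 2.86% were lower and 2.03% higher. At an unadjusted p under 0.05, 27 members were lower and 0 higher (limma). The median over members was -0.40, that of all genes was -0.01, and 76 of 83 members had a negative change. Both ligated pools lay below all unligated ones for 49 members (59%), as for 22.2% of all genes.

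Ndufa6, an accessory subunit of complex I, was the gene that passed. It had 160 and 176.8 in SNL and SNL GPN nerves, against 301.5, 269.8 and 306.5 in naive, naive GPN and sham nerves (-0.78 ± 0.17, adjusted p = 0.0457). The groups did not overlap, but its other probe set changed by 0.06, and the call passed in 3 of 11 alternatives. Of the genes that did not pass, Ndufs3 had 88 and 103.9 in ligated nerves, against 162.5, 146.2 and 155.4 in unligated nerves (adjusted p = 0.0854). Uqcr10, a small subunit of complex III, had 328 and 346.9, against 677, 556.1 and 476.8 (adjusted p = 0.0892). Both were apart between groups. Cox6a1 (-0.24, adjusted p = 0.454) and Cox8a (-0.18, adjusted p = 0.637) had smaller changes than these.

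The muscle markers and the muscle isoforms moved with these groups. The summed signal of 32 tested muscle markers was 1233 in the SNL nerve and 9857 in the SNL GPN nerve, against 10030 to 23420 in unligated nerves, with no marker at 0. Cox6a2 had 48.9 and 216.3 in SNL and SNL GPN nerves, against 615.2, 198.1 and 200.9 in naive, naive GPN and sham nerves, and Cox8b had 22 and 88.9, against 318, 119 and 76.7. Both isoforms overlapped between groups. With the muscle markers as a covariate 0 members passed and the median over members was -0.30. In that fit 2 genes passed among all genes. The summed signal of 7 fat markers ran from 1446 to 1642 in ligated nerves, against 2449 to 3887 in unligated nerves, and that of 5 Schwann cell markers from 8605 to 8825, against 13270 to 14310. Their part in the members' lower values was not tested.

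The nerve count moved most with the model. In 1 fit over all 52 pools, 23 members were lower and 0 higher, 27.7% of members, while 14.3% of all genes were called in that fit and 4.89% in the fit of the 5 nerve pools. The count was 0 without SNL, SNL GPN, naive or naive GPN and 2 without sham. The contralateral nerve could not be tested, since its only ligated pool was SNL GPN. There the members' median deviation was -0.22 in that pool, against -0.12 in naive GPN, -0.15 in sham and 0.44 in the naive pool, the pool highest in muscle markers.

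In the ipsilateral spinal cord 0 of 83 members passed (limma), with 0 higher and 1 lower at an unadjusted p under 0.05, and 0% of all genes there passed in either direction. In the contralateral L4, L5 and L6 DRG, contralateral cord and brain, 0 of 81 to 83 members passed in each, with 0 to 8 higher and 1 to 3 lower at an unadjusted p under 0.05. Of all genes, 0.0237% were higher in the contralateral L6 DRG, and 0% passed in the other 4. The contralateral L5 and L6 DRG had 2 unligated pools each. The medians over members ran from -0.18 in the contralateral L4 DRG to 0.10 in the contralateral L6 DRG. Gabapentin, tested with ligation as a covariate on each treatment's mean over the compartments with all 5 pools, changed 0 of 85 members and 0% of all 9696 genes (limma). At an unadjusted p under 0.05, 1 member was higher and 1 lower. The median over members was -0.02.

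Tissue levels were compared in the naive, naive GPN and sham rats, with values averaged per treatment over the compartments of a tissue. Between sciatic nerve and DRG, the muscle isoforms of complex IV were higher in nerve and their ubiquitous partners lower. Of 85 members, 4 were higher in nerve (4.71%) and 25 lower (29.4%), while of all 9656 genes tested 28.7% were higher and 22.6% lower. With each array scaled to its median the split was 8 higher and 8 lower (18.8% of members in either direction, against 50.9% of all genes). With the deposited scaling it was 2 higher and 61 lower (74.1% against 57.2%).

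Cox8b had 528.3, 148.3 and 95.9 in naive, naive GPN and sham nerves. In DRG of these treatments it had 40.5, 19.9 and 14.5 (2.91 ± 0.49, adjusted p = 0.00024). Cox6a2 had 988.2, 272.2 and 212.8 in these nerves, against 121.4, 58.4 and 61.9 in DRG (2.30 ± 0.40, adjusted p = 0.000331). Neither overlapped, and the naive nerve was the highest of both. With the muscle markers as a covariate the changes turned to -0.58 and -0.84 and did not pass (adjusted p = 0.577 and 0.086). In that fit 0 members were higher in nerve and 16 lower, 18.8% of members against 20.5% of all genes, a share near the background. Of 35 tested muscle markers 27 were higher in nerve and 1 lower.

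The ubiquitous partners went the other way. Cox6a1 had 1082, 1258 and 1150 in naive, naive GPN and sham nerves, against 2167, 2225 and 2105 in DRG (-0.89 ± 0.09, adjusted p = 3.08e-06). Cox8a had 1138, 1198 and 1281 in nerves, against 1797, 1868 and 1960.5 in DRG (-0.63 ± 0.11, adjusted p = 0.000207). In each gene the nerve values lay below all DRG values. With the muscle markers as a covariate Cox6a1 still passed (-0.73, adjusted p = 0.0353) and Cox8a did not (-0.38, adjusted p = 0.326). Over the 9 alternatives Cox6a1 ran from -1.06 to -0.33 and passed in 8. Cox8a ran from -0.81 to -0.08 and passed in 7, so the size of both differences depended on the processing.

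Among members lower in nerve, Atp5f1d, the delta subunit of ATP synthase, had the largest difference. It had 335.5, 257.8 and 178.9 in naive, naive GPN and sham nerves, against 940.1, 931 and 739 in DRG (-1.79 ± 0.20, adjusted p = 4.56e-06). It passed under all 9 alternatives, with values from -2.84 to -1.56. Ndufb6 had 250, 236.5 and 186.3 in nerves, against 509.4, 391.9 and 430.5 in DRG (-0.96 ± 0.27, adjusted p = 0.0093). Atp5if1, the inhibitor that stops ATP synthase from running backwards, had 313.2, 372.7 and 447 in nerves, against 576.6, 652.3 and 674.9 in DRG (-0.73 ± 0.15, adjusted p = 0.00115). With the muscle markers as a covariate Atp5if1 changed by -0.04 (adjusted p = 0.952).

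Ndufs1, the largest core subunit of complex I, was also lower in nerve (-0.65 ± 0.12, adjusted p = 0.000327), as was Ndufa4 (-0.60 ± 0.12, adjusted p = 9e-04). So were Sdhaf2 and Sdhaf3, assembly factors of complex II (-0.61 and -0.69, adjusted p = 0.00162 and 0.000769). Ndufa10l1, a paralog of the complex I gene Ndufa10, averaged 152 ± 18.3 in nerve and 286 ± 8.99 in DRG (SD, n = 3 each; -0.89 ± 0.105 SE, adjusted p = 9.52e-06). Cox4i1 (-0.39, adjusted p = 0.023), Cox6b1 (-0.40, adjusted p = 0.0232), Ndufb8 (-0.36, adjusted p = 0.0111) and Atp5f1b (-0.52, adjusted p = 0.013) were lower in nerve, and each turned positive with median scaling. Ndufa6 (0.34, adjusted p = 0.0371) and Ndufa11 (0.31, adjusted p = 0.022), accessory subunits of complex I, were higher in nerve, and both turned negative with the deposited scaling. The other probe set of Ndufa6 had the opposite sign, at -0.11. For Ndufa11 only 1 of 3 probe sets had the sign of the call, and the lowest was at -0.10. Sdhaf2 and Ndufb8 each had a probe set of opposite sign too, at 0.27 and 0.14. Of the mitochondrially encoded subunits, COX2 was lower in nerve (-0.48 ± 0.15, adjusted p = 0.0166), and COX1 and COX3 did not pass (adjusted p = 0.742 and 0.296). The nerve count was 14 without naive GPN (16.5% of members, against 39.3% of all genes) and 16 without sham (18.8% against 42.4%). Other cell types differed too: 14 of 14 neuronal and 7 of 7 nociceptor markers were lower in nerve, while 9 of 9 macrophage, 4 of 5 Schwann cell, 3 of 4 endothelial and 4 of 7 fat markers were higher. Their part in the members' values was not tested.

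**Figure D5:**
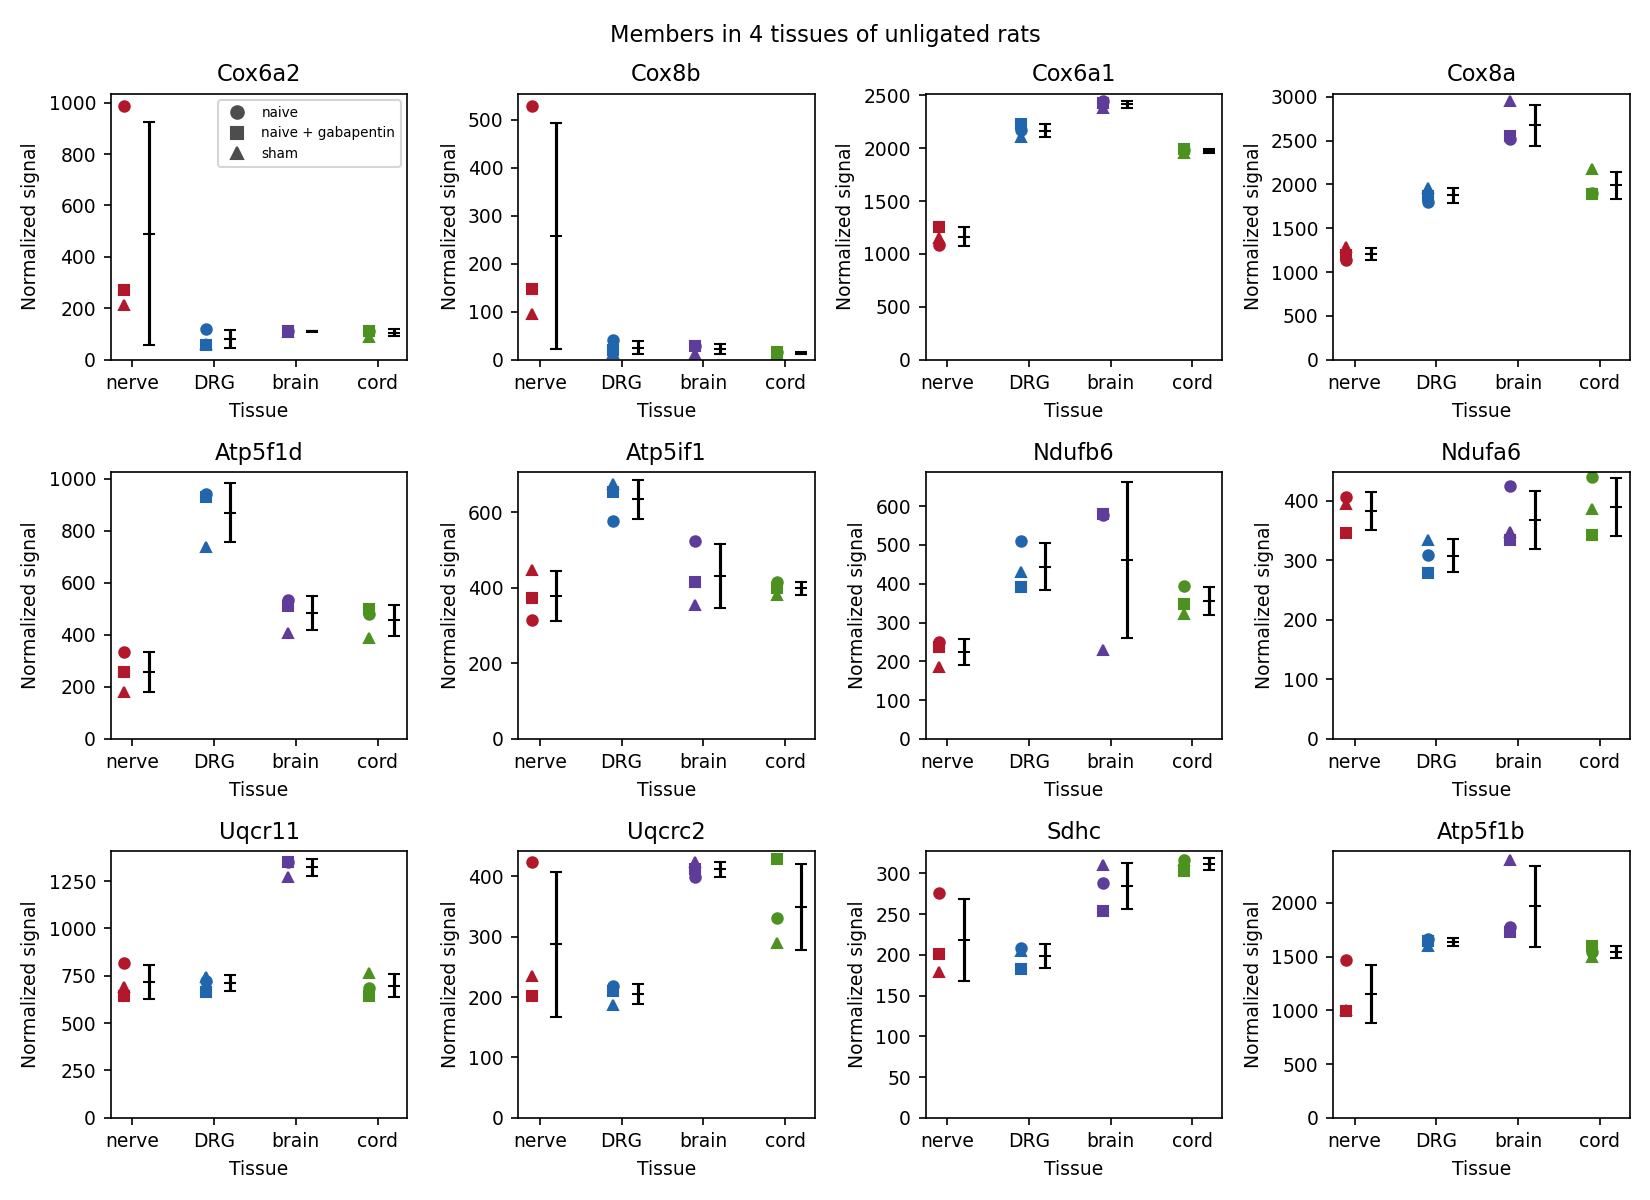
Normalized signal of 12 members in sciatic nerve, DRG, brain and spinal cord of unligated rats; points are the naive, naive with gabapentin and sham values, each averaged over the compartments of a tissue, and bars are the mean and SD (n = 3). Cox6a2 and Cox8b were highest in nerve, up to 988.2 and 528.3 in the naive value, Atp5f1d averaged 870 in DRG and 257.4 in nerve, and Uqcr11 averaged 1324 in brain and 696.9 in cord.

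Between DRG and spinal cord, 4 of 85 members were higher in DRG (4.71%) and 5 lower (5.88%), fewer than among all 9656 genes, of which 16% were higher and 13.7% lower. With median scaling the split was 11 higher and 0 lower (12.9% of members, against 29.6% of all genes in either direction). With the deposited scaling it was 5 and 3 (9.41% against 22.9%). Atp5f1d averaged 870 ± 114 in DRG and 455 ± 59.7 in cord (SD, n = 3 each; 0.93 ± 0.20 SE, adjusted p = 0.00274). Atp5if1 averaged 635 ± 51.5 in DRG and 398 ± 17.3 in cord (0.64 ± 0.15, adjusted p = 0.00548). Cox7a2l, which helps join complexes III and IV into supercomplexes (0.45 ± 0.12, adjusted p = 0.0131), and Ndufa10l1 (0.43 ± 0.11, adjusted p = 0.00702) were the other 2.

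Lower in DRG than in cord were Uqcrc2, a core protein of complex III, which averaged 205 ± 16.4 in DRG and 350 ± 71.0 in cord (-0.75 ± 0.21, adjusted p = 0.0177). Its other probe set changed by 0.13. Sdhc averaged 199 ± 14.3 in DRG and 312 ± 7.39 in cord (-0.64 ± 0.14, adjusted p = 0.00405). The complex I accessory genes Ndufa8 (-0.54), Ndufb9 (-0.51) and Ndufa6 (-0.36) made up the rest, with adjusted p values of 0.0168, 0.0201 and 0.0465. The count was 9 without naive (10.7% of members, against 20.2% of all genes) and 0 without naive GPN (0% against 18.3%). It was 5 without sham (5.88% against 22.3%), and 14 with the muscle markers as a covariate (16.5% against 29.8%). Between these tissues 7 of 7 nociceptor and 9 of 14 neuronal markers were higher in DRG, while 5 of 5 oligodendrocyte, 5 of 6 astrocyte and satellite glia and 4 of 9 macrophage markers were lower. Some markers went against their list: the neuronal Map2 was lower in DRG (-1.33, adjusted p = 3.06e-06) and the macrophage Lyz2 higher (0.95, adjusted p = 0.00257). Muscle markers were called in both directions, among them Acta1 higher (1.79, adjusted p = 0.022) and Pygm lower (-2.41, adjusted p = 0.000178). The part of these cell types in the members' values was not tested.

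Between brain and spinal cord, 4 members were higher in brain (4.71%) and 2 lower (2.35%), fewer than among all genes, of which 10.2% were higher and 12.2% lower. Uqcr11, a small subunit of complex III, had 1350, 1350 and 1272 in naive, naive GPN and sham brains, against 684.8, 642.5 and 763.3 in cords of these treatments (0.93 ± 0.11, adjusted p = 3.59e-05). Every brain value lay far above every cord value, and it passed under all 9 alternatives, from 0.76 to 1.03. Ndufa4 (0.43 ± 0.12, adjusted p = 0.021), Cox8a (0.43 ± 0.11, adjusted p = 0.0104) and Cox6a1 (0.29 ± 0.09, adjusted p = 0.042) were the other 3. Uqcrh (-0.35 ± 0.10, adjusted p = 0.0218) and Ndufa11 (-0.32 ± 0.10, adjusted p = 0.0415) were lower in brain, and Ndufa11 had another probe set at 0.08. The count was 1 with median or with deposited scaling (1.18% of members, against 18% and 17.9% of all genes). It was 2 without naive (2.38% against 16%), 1 without naive GPN (1.18% against 11.6%) and 4 without sham (4.71% against 17.2%). The muscle markers were near their lowest in both tissues, and 0 of 35 passed. Of other cell types, 5 of 5 oligodendrocyte, 5 of 5 Schwann cell and 5 of 9 macrophage markers were lower in brain, and of 14 neuronal markers 7 were higher and 5 lower. Their part in the members' values was not tested.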

How the data were processed

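The deposited values are probe set intensity values of Affymetrix rat U34 A, B and C arrays, made by the authors with MAS5, per the submitters' processing notes. The sources used here state neither its version nor its target intensity, and present or absent calls were not used. Within an array type, the highest trimmed mean (2%) was 4.11, 4.69 and 3.00 times the lowest (A, B, C), above the limit set for this, so values were quantile normalized. This was done within a compartment for ligation and gabapentin, and over all 52 pools for tissue and the levels by pool. Pseudocounts of 5.8, 4.5 and 6.2, the 20th percentile of A, B and C, were added before log2. A probe set was tested if it was above the 40th percentile of its array in 2 or more pools. Control probe sets (177) were left out.

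Tests used limma 3.58.1 in R 4.3.3 with Benjamini-Hochberg adjustment over all probe sets of a comparison. On simulated L5 data (2 against 3 pools, 16724 probe sets), 38% of changes of 1 log2 unit and 82% of changes of 2 log2 units were recovered, with 2 false calls. Smaller changes, such as those of most called members, were not simulated. Far fewer probe sets were changed there than were called in the real L5 pools, so the figures may not carry over.

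Symbols were updated through Entrez IDs for 18122 probe sets with RefSeq's GRCr8 table, used for names and promoters only. Member genes and lists were chosen with earlier results of these data known. Named were up to 10 rises and 10 falls per comparison past 0.05 without overlap, isoform genes, the 2 members of each complex with the highest mean signal, and up to 4 genes of each other list. Other genes named with values were chosen after these were seen. Alternatives were deposited or median scaling, no filter, a doubled pseudocount, muscle markers as a covariate, 1 fit over all 52 pools, treatment as a block between tissues, and each treatment left out in turn.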

Additional observations from a re-analysis of the deposited data

How the results depend on the processing

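The 15 named genes called in the L5 DRG kept their direction in every alternative run, and Ndufab1 passed in 12 of 12. The L5 count of 21 ranged from 14 to 31 with another scaling, filter, pseudocount, covariate or joint fit. The 14 without a filter were 16.5% of members, against 9.44% of all genes, and the 31 with median scaling 37.8%, against 16.9%. The count was 16 (19.5% against 13.3%) with the limit on trimmed means read within the compartment, an alternative chosen after seeing the data. With the deposited scaling the median of all genes in L5 shifted to -0.27 and that of the members to -0.59. Leaving out a treatment gave 2 to 17 members in L5, 0 to 2 in L6, 0 to 2 in the ipsilateral nerve, 14 to 31 between nerve and DRG, 0 to 9 between DRG and cord, and 1 to 4 between brain and cord. With the deposited scaling the counts were 2 in L6 (2.41% of members against 0.497% of all genes) and 4 in L4 (4.88% against 15.8%). The 4 in L4 were all higher, where all genes had a median of 0.45. There were 0 in nerve (0% against 2.77%) and 2 in the contralateral compartments and brain (0.489% against 1.61%). For L5 minus L4 the count was 14 (16.9% against 25.9%), with medians of -0.80 for all genes and -0.59 for members. Between nerve and DRG it was 63 (74.1% against 57.2%), where all genes had a median of -0.47, and between brain and cord 1 (1.18% against 17.9%). With median scaling the counts were 2 in nerve (2.41% against 4.59%) and 16 between nerve and DRG (18.8% against 50.9%). Between brain and cord the count was 1 (1.18% against 18%). The nerve count was 0 without a filter, where 2.53% of all genes were called. With the muscle covariate the counts were 0 in L6 (0% against 5.85%) and 0 in nerve (0% against 0.0231%). They were 16 between nerve and DRG (18.8% against 20.5%) and 14 between DRG and cord (16.5% against 29.8%). In 1 fit over 52 pools they were 7 in L6 (8.43% against 18.4%) and 23 in nerve (27.7% against 14.3%). Between nerve and DRG, Ndufa6 turned to -0.14 and Ndufa11 to -0.57 with the deposited scaling, Cox4i1 to 0.22, Cox6b1 to 0.19, Ndufb8 to 0.083 and Atp5f1b to 0.043 with median scaling, and Cox8b to -0.58, Cox6a2 to -0.84 and Ndufa11 to -0.088 with the muscle covariate. The cause was not tested. With treatment as a replicate block the tissue counts were 33 (38.8% against 52.8%), 11 (12.9% against 31.1%) and 7 (8.24% against 23.6%). Ligation could not be fitted with treatment as a block, since a treatment is wholly ligated or unligated, and the difference within treatments was taken as L5 minus L4. With 2 pools against 3, the number of arrays limits the precision.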
